A study of Mus musculus with 23 samples.

Results

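A list of genes that mark neutrophils, or that bring them out of the blood, were followed in fat pad tissue taken next to a mammary tumor. They were taken as a list by name: S100a8, S100a9, Cxcr2, Csf3r, Cxcl1, Cxcl2, Cxcl5, Ly6g, Retnlg and Lcn2, which are 10 of the 47311 genes in the files. All 10 were found, and 8 passed the filter on low counts. Cxcl5 and Ly6g did not pass it and are given by their values alone.

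RNA was sequenced as 23 libraries, 1 per sample, from female C57BL/6J mice. Obese mice ate food with 60% of its energy from fat between 8 and 26 weeks of age. Lean mice are labelled as given low-fat food with 10% of its energy from fat, although the treatment text of every sample mentions the high-fat food alone. In every group, 250000 cells of E0771, a mouse mammary carcinoma line carrying luciferase, had been placed in mammary gland 4, and antibody was injected every 3 days from day 3 to day 21. Each dose was 200 µg, either of anti-PD-1, an antibody against a receptor that restrains T cells, or of the isotype control IgG2a. With IgG2a there were 5 lean and 5 obese libraries, and with anti-PD-1 there were 5 lean and 8 obese ones. Every mouse carried the tumor and received an antibody, so no tumor-free or uninjected fat pad serves as a baseline. Whole tissue was extracted, and fewer cells of a type and less RNA per cell cannot be told apart in such libraries.

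Neutrophils are short-lived white cells that are made in the marrow under the growth factor G-CSF, read by the receptor encoded by Csf3r. They leave the blood along gradients of the chemokines encoded by Cxcl1, Cxcl2 and Cxcl5, which act on the receptor encoded by Cxcr2. In tumors, granulocytic cells of this lineage can restrain T cells, and they are then called granulocytic myeloid-derived suppressor cells. S100a8 and S100a9 encode both subunits of calprotectin, an abundant protein of neutrophil cytoplasm.

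Libraries held 49438121 to 77369057 estimated counts. Genes with at least 10 counts numbered 14806 in lean anti-PD-1 4 and 16690 to 18403 in the others. Lean anti-PD-1 4 had no count of S100a8, S100a9 or Cxcr2. By the mean log2 CPM (counts scaled to library size) of 10 B cell genes, 11 libraries scored above 4 and 12 at or below it. The higher set comprised lean IgG2a 1 to 4, lean anti-PD-1 1, 3 and 5, obese IgG2a 1 and 3, and obese anti-PD-1 3 and 4. B cell genes summed to 264 to 3445 TPM (transcript abundance scaled to the same total in every library) in that set and to 1.73 to 7.60 TPM in the rest. Genes of proliferating, tumor-like cells summed to 431 TPM in obese IgG2a 2 and 536 TPM in obese IgG2a 5 and to at most 118 TPM elsewhere. Of this list, Hmga2 and Fosl1 were also raised in obese IgG2a 4 (7.68 and 16.5 TPM) and obese anti-PD-1 8 (2.19 and 7.01 TPM). In lean libraries they reached at most 0.234 and 2.08 TPM. Liver genes reached 10444 TPM in obese IgG2a 5 and at most 132 TPM in the other libraries. The fat cell list was high in every library (9496 to 66923 TPM).

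Cxcl1, Cxcl2 and their close relative Cxcl3 lie near each other on chromosome 5, and each has an NF-kappaB-type motif shortly before its start. These sequences are shown because the 3 chemokine genes were higher in obese mice, and each is the stretch from 150 to 31 bases before the RefSeq start in GRCm38.p6, on the plus strand, 5′ to 3′. Capitals mark GGGAATTTCCC, the longest run of letters that all 3 promoters share (11 letters), whose first base lies 71, 97 and 73 bases before the start of Cxcl1, Cxcl2 and Cxcl3. The windows are chr5:90891095-90891214, chr5:90903749-90903868 and chr5:90785951-90786070.
Cxcl1: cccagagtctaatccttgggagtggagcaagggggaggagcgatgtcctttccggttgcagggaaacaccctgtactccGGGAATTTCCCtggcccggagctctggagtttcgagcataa
Cxcl2: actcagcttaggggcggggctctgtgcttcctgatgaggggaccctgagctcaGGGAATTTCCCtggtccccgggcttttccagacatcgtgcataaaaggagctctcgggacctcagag
Cxcl3: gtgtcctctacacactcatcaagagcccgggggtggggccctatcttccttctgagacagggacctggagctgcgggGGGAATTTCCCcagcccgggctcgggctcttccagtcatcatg
The motif, searched on both strands in the 250 bases before each start, occurred in 14 of 32851 RefSeq promoters (0.0426%). Of the 9 listed genes with a promoter entry, Cxcl1 and Cxcl2 held it. A second motif, TTGCNNAA of the C/EBP family of myeloid factors, was far more common. It occurred in 9.56% of promoters and in 4 of the 9 (Lcn2, Ly6g, Retnlg and S100a9). The first motif was found by comparing these 3 promoters, which therefore all hold it, and a match is a description of letters, not a bound site.

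The ligand gene Cxcl1 (ENSMUSG00000029380, GRCm38 chromosome 5, 90891241 to 90893115) was low in every lean fat pad. It stood at 0.420, 0.555, 0.210, 0.884 and 0.0643 TPM in lean IgG2a 1 to 5 and at 0.178, 0.524, 1.20, 0.120 and 0.406 TPM across libraries 1 to 5 of the lean anti-PD-1 group. The obese IgG2a libraries reached 5.84, 9.95, 3.84, 10.5 and 7.12 TPM. All 5 obese IgG2a libraries lay above all 10 lean ones. In obese anti-PD-1 mice Cxcl1 ran from 0.120 through a median of 3.97 to 12.9 TPM. Libraries 2, 5 and 6 of that group fell within the lean range, and the other 5 were above it.

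Cxcl2, a ligand of the same receptor (ENSMUSG00000058427, 90903871 to 90905938, 10756 bases beyond Cxcl1), was scarcer in lean mice. It gave 0.139, 0, 0.0466, 0.296 and 0.105 TPM in lean IgG2a and 0.279, 0.0394, 0.387, 0.0654 and 0.0739 TPM in lean anti-PD-1 libraries. Obese IgG2a libraries gave 0, 3.03, 0.671, 3.72 and 12.7 TPM. The 0 belonged to obese IgG2a 1, a library with 5.84 TPM of Cxcl1, and the 12.7 to obese IgG2a 5. Obese anti-PD-1 libraries ran from 0.313 through a median of 1.83 to 14.7 TPM, and 11 of the 13 obese libraries exceeded the highest lean one.

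Cxcl5, a ligand gene of the same cluster (ENSMUSG00000029371, chromosome 5, 90759360 to 90761624), was essentially a feature of 1 library. Obese anti-PD-1 7 held 22.6 TPM (1523 of the 1594 counts of all libraries), and no other library exceeded 0.353 TPM. Lean IgG2a libraries had no count, which allows up to 0.0092 CPM over that group for counting error only, and lean anti-PD-1 libraries had 2 counts in all. Obese anti-PD-1 7 was also the highest for Cxcl1 (12.9 TPM) and for Cxcl3 (23.1 TPM), while its Cxcl2 (7.15 TPM) came after those of obese anti-PD-1 8 and obese IgG2a 5. The same library had 6.80 TPM of S100a9, 0.582 TPM of Cxcr2 and no Ly6g count. High ligand levels there stood beside neutrophil gene levels in the lower part of the obese range.

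**Figure D1:**
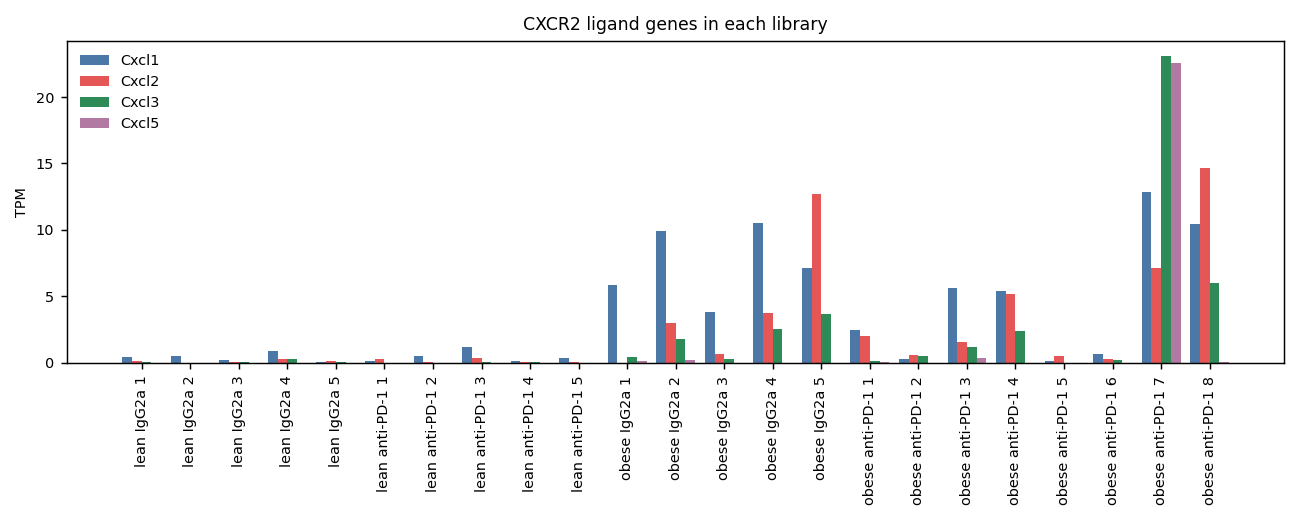
Levels in TPM (vertical axis, linear) of 4 chemokine genes that act on CXCR2, 1 group of bars per library. Lean libraries stay at or below 1.20 TPM, and obese anti-PD-1 7 stands apart by Cxcl3 (23.1 TPM) and Cxcl5 (22.6 TPM).

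The receptor gene Cxcr2 (ENSMUSG00000026180, chromosome 1, 74153989 to 74161246) was highest where B cell genes were high as well. It stood at 0.550, 0.143, 1.78, 1.49 and 0.140 TPM in lean IgG2a and at 2.44, 0, 0.697, 0 and 0.579 TPM in lean anti-PD-1 libraries. The obese IgG2a libraries gave 6.96, 0.379, 8.53, 0.869 and 1.26 TPM, and obese anti-PD-1 libraries ran from 0 through a median of 0.463 to 6.99 TPM. The 4 highest values (3.70 to 8.53 TPM) were those of the 4 obese libraries with a B cell score above 4. Among the 12 libraries with a low score it did not exceed 1.26 TPM, and 4 of them had no count.

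Csf3r, the G-CSF receptor gene (ENSMUSG00000028859, chromosome 4, 126024550 to 126044440), was spread less widely. Lean IgG2a libraries held 0.451, 0.685, 2.25, 2.14 and 0.802 TPM, and lean anti-PD-1 libraries 3.21, 0.582, 1.75, 0.0193 and 0.682 TPM. Obese IgG2a libraries held 3.90, 3.71, 4.87, 4.02 and 7.87 TPM, each above every lean library. Obese anti-PD-1 libraries ran from 0.333 through a median of 2.93 to 8.82 TPM and overlapped both lean groups.

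S100a8 (ENSMUSG00000056054, chromosome 3, 90668978 to 90670035) separated the diets most clearly of the list. Its lean levels were 3.56, 4.66, 0.338, 4.36 and 2.09 TPM with IgG2a and 0.135, 3.57, 2.55, 0 and 0.670 TPM with anti-PD-1. Obese IgG2a libraries held 80.1, 26.6, 137, 40.7 and 51.6 TPM, and obese anti-PD-1 libraries ran from 9.44 through a median of 19.1 to 109 TPM. All 13 obese libraries exceeded all 10 lean ones. It was the only 1 of the 10 listed genes with this separation, which 0.553% of the 19882 genes tested also showed.

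Its partner S100a9 (ENSMUSG00000056071, 22597 bases away on the same chromosome, 90692632 to 90695721) gave 7.72, 6.77, 1.60, 3.12 and 2.08 TPM in lean IgG2a and 1.46, 1.61, 1.03, 0 and 1.21 TPM in lean anti-PD-1 libraries. Obese IgG2a libraries gave 102, 19.8, 178, 41.9 and 48.6 TPM. All 5 lay above the lean range, in the order of S100a8 (library 3 highest, library 2 lowest). Obese anti-PD-1 libraries ran from 0 through a median of 6.83 to 120 TPM. Of all 13 obese libraries, 8 exceeded the highest lean level.

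The calprotectin pair came apart in 3 obese anti-PD-1 libraries, numbers 1, 5 and 6. S100a8 held 9.44, 10.9 and 17.9 TPM there, from 115, 122 and 159 counts. S100a9 held 0.446, 0.160 and 0 TPM, from 6, 2 and 0 counts. In the 5 obese IgG2a libraries the ratio of S100a8 to S100a9 in TPM lay between 0.771 and 1.35, whereas it was 21.2 in obese anti-PD-1 1 and 67.7 in obese anti-PD-1 5. In lean libraries with S100a9 counts, where both levels were low, the ratio ran from 0.0925 (lean anti-PD-1 1) to 2.47 (lean anti-PD-1 3). Obese anti-PD-1 2 and 7 held ratios of 2.43, within that lean range, and 3.08, above it. Some other neutrophil genes were scarce in libraries 1, 5 and 6 as well. Retnlg had 0, 2 and 4 counts, and Ngp, Camp, Stfa2l1 and Ly6g had none. This scarcity was not confined to these libraries. Obese anti-PD-1 7 also had none of those 4 genes and 10 counts of Retnlg, and obese anti-PD-1 2 had no Ngp or Ly6g. Others were present, Csf3r at levels within the lean range. Csf3r had 88, 46 and 72 counts in libraries 1, 5 and 6 (0.591, 0.333 and 0.665 TPM, against a lean median of 0.743). The protease genes Elane and Prtn3 ran from 0.553 to 1.66 TPM and from 4.94 to 19.3 TPM over the obese anti-PD-1 libraries. Lean libraries held 0 to 1.71 TPM of Elane and 3.11 to 12.0 TPM of Prtn3. S100a8 at a level above every lean library was thus measured in 3 libraries with almost no transcript of its partner. The source of those S100a8 counts was not tested.

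**Figure D2:**
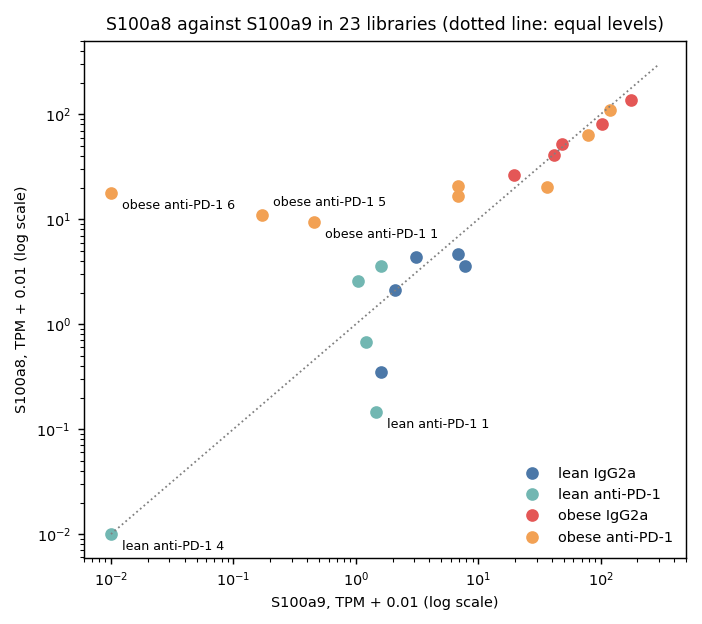
S100a8 (vertical) against S100a9 (horizontal) in each of the 23 libraries, both as TPM + 0.01 on log axes, with the dotted line at equal levels. Most obese libraries lie near the line at the upper right, and obese anti-PD-1 1, 5 and 6 lie far to its left with S100a8 between 9.44 and 17.9 TPM.

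Ly6g (ENSMUSG00000022582, chromosome 15, 75155240 to 75159126) encodes the surface antigen by which mouse neutrophils are sorted. Lean libraries held 4 counts in all, 2 in each antibody group. Among obese IgG2a libraries it read 0, 9.68, 1.41, 0 and 2.17 TPM, and among obese anti-PD-1 libraries 3 of 8 had any count (0.162, 0.472 and 1.60 TPM). The 9.68 TPM rested on 140 counts, and the 1.60 TPM on 8. The order of Ly6g did not follow that of S100a9: obese IgG2a 2 was highest for Ly6g and lowest of its group for S100a9, and obese IgG2a 1 had 102 TPM of S100a9 and no Ly6g count. Ly6g belongs to a family of similar genes, between which estimated counts can be divided.

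Retnlg (ENSMUSG00000022651, chromosome 16, 48872621 to 48874496) encodes a resistin-like protein of neutrophils. It ran from 0.0832 to 0.545 TPM in lean IgG2a and from 0 to 1.04 TPM in lean anti-PD-1 libraries, 3 of which had no count. Obese IgG2a libraries held 6.35, 1.75, 20.4, 6.12 and 9.76 TPM. The obese anti-PD-1 libraries ran from 0 through a median of 1.92 to 8.13 TPM. All obese IgG2a libraries exceeded all lean ones, and 4 of the 8 obese anti-PD-1 libraries did.

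Lcn2 (ENSMUSG00000026822, chromosome 2, 32384633 to 32388252) encodes lipocalin 2, an iron-carrier-binding protein that neutrophils store but that fat cells and epithelium also make. It was the most abundant of the 10 genes by median and did not follow the others between the diets. It held 45.0, 125, 49.5, 45.1 and 49.1 TPM in lean IgG2a, 32.7, 188, 79.3, 73.0 and 73.9 TPM in lean anti-PD-1 and 58.3, 73.3, 58.9, 86.8 and 89.9 TPM in obese IgG2a libraries. The obese anti-PD-1 libraries ran from 15.9 through a median of 65.8 to 126 TPM. The groups overlapped throughout, and no obese library exceeded the highest lean one. No annotated gene overlapped any of the 10.

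**Figure D3:**
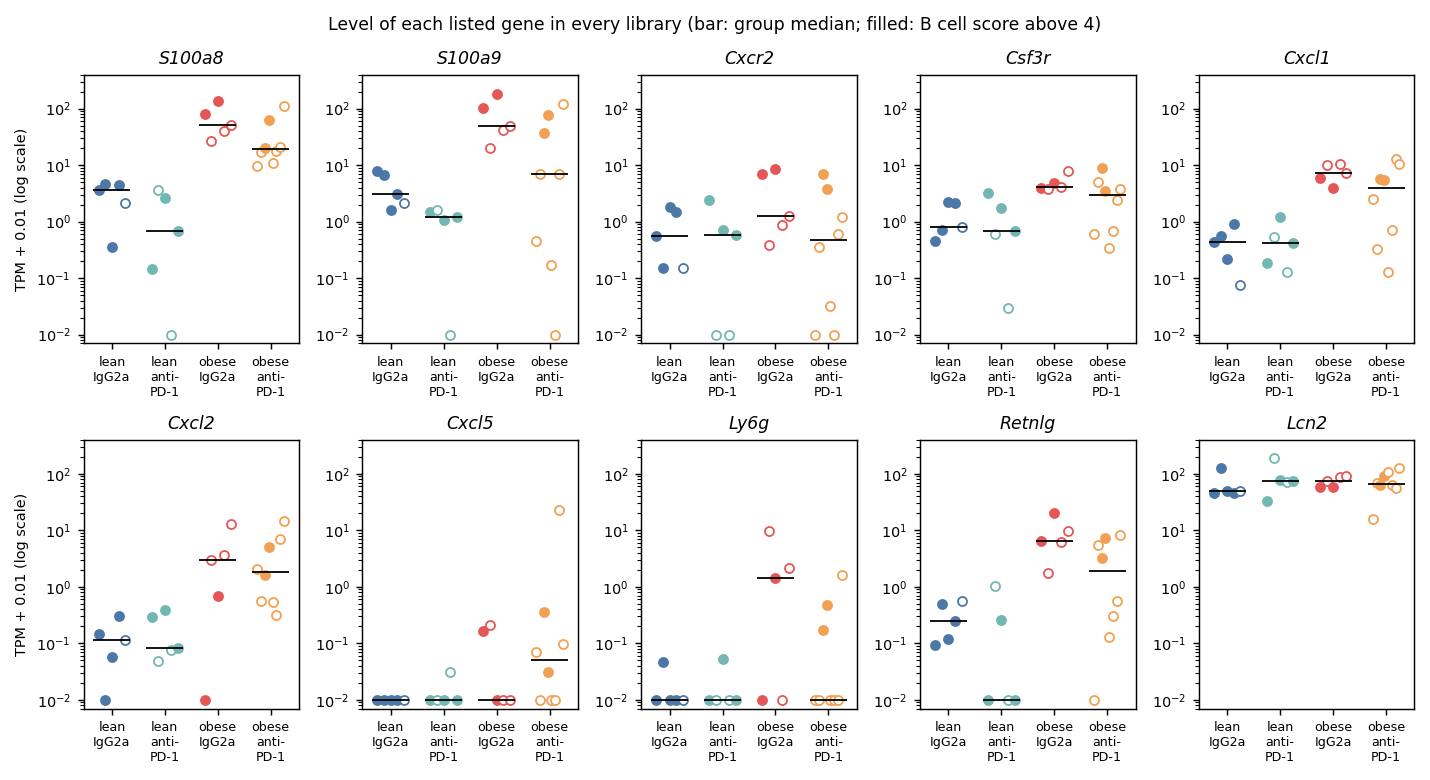
Level of each listed gene in every library, as TPM + 0.01 on a log axis, by group, with a bar at the group median and filled points for a B cell score above 4. S100a8 is higher in all 13 obese libraries than in any lean one, Lcn2 overlaps in all groups, and Cxcl5 is high in obese anti-PD-1 7 alone.

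The first comparison asked how obesity changed these genes under the isotype control. In obese IgG2a mice S100a8 and Cxcl1 rose, and Cxcl2 was higher without passing the test. S100a8 rose by 4.29 log2 units (SE 1.04, adjusted p = 0.0167), from 3.00 ± 1.79 to 67.2 ± 43.7 TPM (SD, n = 5 each). Cxcl1 rose by 3.44 (SE 0.940, adjusted p = 0.0323), from 0.427 ± 0.318 to 7.45 ± 2.80 TPM. Cxcl2 differed by 4.04 (SE 1.30, adjusted p = 0.0679). These are edgeR's quasi-likelihood tests with Benjamini-Hochberg adjustment over 19882 genes, and a gene is said to have risen or fallen where the adjusted p was under 0.05. Thus 2 of 8 genes were called, where 2.68% of all genes were called higher. The median log2 change of the 8 was 3.73, and that of all genes was 0.12. By level, 5 of the 10 (S100a8, S100a9, Csf3r, Cxcl1 and Retnlg) were higher in all obese than in all lean IgG2a libraries, a separation that 3.4% of genes showed. The S100a8 call was lost without lean IgG2a 5 (4.19, adjusted p = 0.0527), and that of Cxcl1 without any 1 of 6 libraries: lean IgG2a 1, 2, 3 or 5 or obese IgG2a 2 or 5 (adjusted p of up to 0.0906). Without obese IgG2a 2 and 5, the libraries of highest summed tumor-like genes, 1 gene was called, and Cxcl1 differed by 3.43 (adjusted p = 0.129). Obese IgG2a 4, with 7.68 TPM of Hmga2 and 16.5 TPM of Fosl1, stayed in that fit. It called 293 of 20976 genes in either direction, against 1152 of 19882 in the main fit.

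The second comparison asked the same under anti-PD-1. S100a8 rose by 4.26 (SE 1.01, adjusted p = 0.00983), from 1.39 ± 1.59 (SD, n = 5) to 33.5 ± 34.9 TPM (SD, n = 8). Cxcl2 differed by 3.86 (SE 1.24) and Cxcl1 by 2.70 (SE 0.869), both just short of the threshold, with adjusted p-values of 0.05004 and 0.05013 by edgeR's quasi-likelihood test. So 1 of 8 genes was called, against 5.2% of all genes called higher. The median of the 8 was 2.98, and that of all genes 0.08. S100a8 was also the single listed gene with no overlap between these groups (4.82% of genes). Leaving out obese anti-PD-1 1, 5 and 6 gave 3 calls, and DESeq2's test gave 5. These called 834 of 19494 and 3117 of 19882 genes in either direction, against 1999 of 19882 in the main fit. Leaving out 1 library, namely obese anti-PD-1 1, 2, 3, 5 or 6 or lean anti-PD-1 3, gave 2 to 4 calls. Those fits called 1483 to 2378 of all genes.

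Averaged over both antibodies, obese mice had more RNA of both S100 genes, 2 ligand genes, Retnlg and the G-CSF receptor gene. S100a8 rose by 4.28 (SE 0.723, adjusted p = 2.7e-04) and S100a9 by 4.28 (SE 1.04, adjusted p = 0.00627). Cxcl2 rose by 3.95 (SE 0.897, adjusted p = 0.00376) and Cxcl1 by 3.07 (SE 0.640, adjusted p = 0.00187). Retnlg rose by 3.97 (SE 1.03, adjusted p = 0.00955). Csf3r rose by 1.44 (SE 0.504, adjusted p = 0.0492), a call that was lost in 16 of 23 fits with 1 library left out (adjusted p of up to 0.0824) and without obese IgG2a 2 and 5 (0.119). It was kept without lean IgG2a 3, lean anti-PD-1 1 or 4, obese IgG2a 1 or obese anti-PD-1 1, 5 or 6. Cxcr2 (1.46, adjusted p = 0.423) and Lcn2 (-0.44, adjusted p = 0.329) did not pass. Thus 6 of 8 genes were called higher and none lower, where 10.6% of all genes were called higher. The median of the 8 was 3.51, and that of all genes 0.12. This average reuses the libraries of the first and second comparisons.

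**Figure D4:**
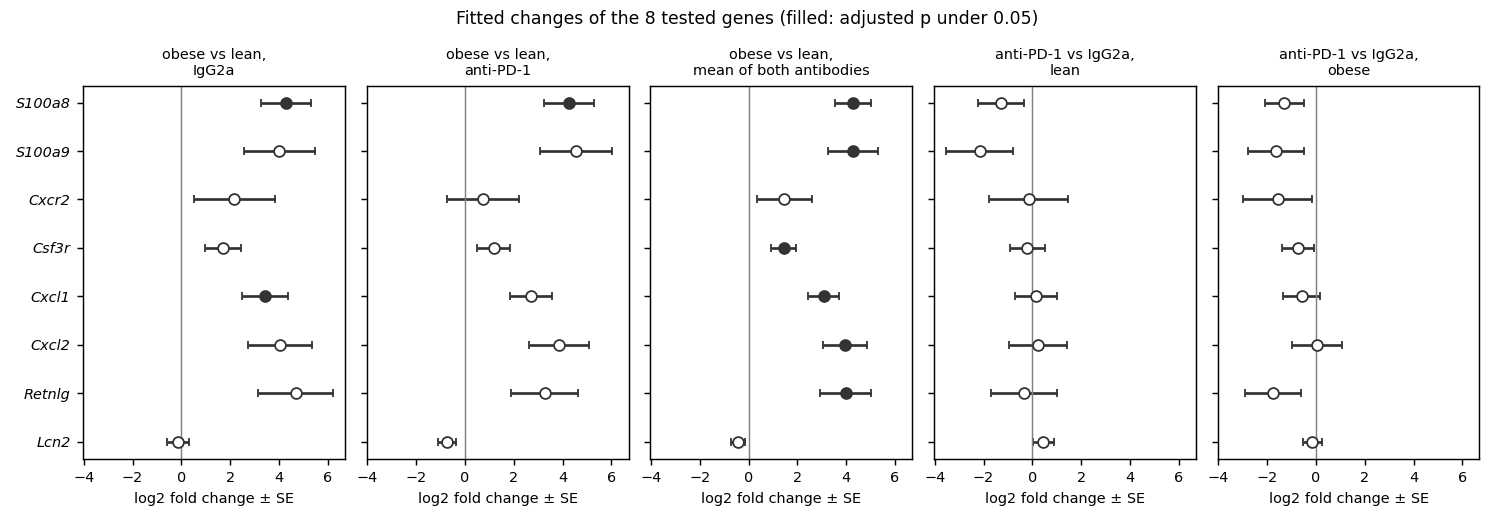
Fitted log2 fold changes (horizontal axis, with SE as bars) of the 8 tested genes in 5 comparisons, filled where the adjusted p was under 0.05. In the average over antibodies 6 genes are filled and higher in obese mice, and no gene is filled in either antibody comparison.

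The obesity comparison was also read within each B cell set. Among the 11 libraries with a score above 4 (7 lean and 4 obese), the average obesity comparison called 6 of the 10 genes. Both S100 genes (S100a8 5.06, S100a9 5.08), Retnlg (5.76), Cxcl1 (2.82), Csf3r (1.41) and Cxcr2 (2.45, adjusted p = 0.00927) rose there, where 19.6% of all genes were called in either direction. Cxcl2 did not pass (2.59, adjusted p = 0.125). In this set several other marker lists differed with diet too. Summed monocyte genes ran from 81.4 to 259 TPM in lean and 301 to 515 TPM in obese libraries, macrophage genes from 248 to 394 and 406 to 733 TPM, and fat cell genes from 24146 to 53225 and 9496 to 23982 TPM, all without overlap. B cell genes (264 to 1971 and 1635 to 3445 TPM), T cell genes (172 to 928 and 849 to 1204 TPM) and mast cell genes (41.8 to 94.7 and 86.9 to 229 TPM) were shifted upward with overlap. The part of these markers in the 6 changes was not tested. The same 6 genes had no overlap between lean and obese libraries of this set (7.58% of genes).

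Among the 12 libraries with a low score (3 lean and 9 obese), edgeR's test called none of the 10 genes, and 3 (S100a8, Cxcl1 and Cxcl2) had an unadjusted p under 0.05. In that set 12.9% of all genes were called. S100a8 differed by 3.60 (adjusted p = 0.0949), Cxcl1 by 4.23 (0.107), Cxcl2 by 4.61 (0.0504) and S100a9 by 3.90 (0.352). S100a8 and Cxcl2 were higher in all 9 obese than in all 3 lean libraries, as were 22.4% of genes in a comparison with so few lean libraries. Whether the 2 sets differ in the effect of obesity was not tested.

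Anti-PD-1 itself moved no listed gene past the threshold. In lean mice S100a9 changed by -2.16 (SE 1.38), S100a8 by -1.29 (SE 0.939) and Lcn2 by 0.45 (SE 0.432), each with an adjusted p of 1 by edgeR's quasi-likelihood test. No gene at all was called there (0.0%; 472 had an unadjusted p under 0.05). In obese mice S100a8 changed by -1.31 (SE 0.799, adjusted p = 0.481), Retnlg by -1.77 (SE 1.16, 0.516) and S100a9 by -1.64 (SE 1.15, 0.554), while 0.538% of all genes were called. S100a9 ran from 0 through a median of 6.83 to 120 TPM in obese anti-PD-1 libraries. In obese IgG2a libraries it ran from 19.8 through a median of 48.6 to 178 TPM. Obese anti-PD-1 1, 2, 5, 6 and 7 lay below the lowest obese IgG2a library, and the ranges overlapped above it. The difference between both antibody effects, obese minus lean, was -0.60 for Lcn2 (SE 0.580, adjusted p = 0.865), -1.42 for Retnlg (SE 1.81, 0.916) and -1.43 for Cxcr2 (SE 2.16, 0.938). Again 0 genes were called (0.0%; 1449 had an unadjusted p under 0.05). In these 3 comparisons none of the 8 listed genes had an unadjusted p under 0.05, and DESeq2's test called none. In obese mice the SE of the 8 changes ran from 0.387 (Lcn2) to 1.42 (Cxcr2) log2 units, and changes of that order were not detectable.

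The wider neutrophil program was read from 4 lists of 63 other genes, of which 61 were tested. In the average over antibodies 15 were higher and 3 lower in obese mice, against 10.6% and 8.15% of all genes. The median of the 61 was 0.64. Of 18 genes of mature neutrophil surface and signaling, 8 rose and none fell (median 1.15). Itgam, which encodes a myeloid adhesion receptor, rose by 1.54 (SE 0.252, adjusted p = 1.8e-04), and the C-type lectin gene Clec4d rose by 3.04 (SE 0.624, adjusted p = 0.00161). Hdc, Slfn4, Fpr1, Clec4e, Fcgr3 and Stfa2l1 were the others. These 8 genes are not confined to neutrophils, and Itgam, Fcgr3 and Clec4e, among others, are shared with macrophages. The 10 macrophage marker genes summed to 185 to 403 TPM in lean and 269 to 762 TPM in obese libraries. The part of macrophages or of other cells in these changes was not tested.

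Of 13 granule and primary program genes, 3 rose and none fell (median 0.92), where 10.6% of all genes rose and 8.15% fell. Camp, the cathelicidin gene of secondary granules, had 8 counts over all lean libraries and 506 over obese ones, of which 311 were in obese IgG2a 3 (195 without it). Mpo, the myeloperoxidase gene of early precursors, had 6 and 348 counts, of which 216 were in obese IgG2a 3 (132 without it). The 4 obese libraries with high B cell genes held 457 of the Camp and 319 of the Mpo counts, and 4 and 6 of the 13 obese libraries had none. Chil3, shared with monocytes and macrophages, rose by 2.13 (adjusted p = 0.0207). Ltf, the lactoferrin gene, dominated the summed level of this list in lean and obese mice alike (a median of 136 TPM in lean IgG2a and 196 TPM in obese IgG2a). It changed by -0.18 (adjusted p = 0.752), and it is also a product of mammary epithelium.

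Of 14 tested attractant and growth factor genes, 3 rose and 1 fell (median 0.74), where 10.6% of all genes rose and 8.15% fell. Cxcl3 rose by 5.67 (SE 1.16, adjusted p = 0.00166), the interleukin-1 gene Il1b by 3.12 (SE 0.772, adjusted p = 0.00699) and Csf1, the macrophage growth factor gene, by 1.15 (adjusted p = 4.0e-04). Il1b was highest in obese IgG2a 2 and 5 (22.0 and 34.5 TPM), the libraries of highest summed tumor-like genes, and at most 8.85 TPM in the others. Cxcl15 fell by 1.32. Csf3, which encodes the ligand of Csf3r, did not pass (0.99, SE 1.10, adjusted p = 0.615) and ran from 0 to 0.791 TPM in lean and 0 to 3.32 TPM in obese libraries.

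Of 16 genes linked to granulocytic suppression of T cells, 1 rose and 2 fell (median 0.48). These counts are near the shares of all genes called, 10.6% higher and 8.15% lower, and show no shift of the list. Olr1, a scavenger receptor gene, rose by 4.92 (SE 0.885, adjusted p = 8.3e-04 by edgeR's quasi-likelihood test) but stayed at 0.596 TPM or less. Arg2, an arginase gene, fell by 1.16 and Ptges, a prostaglandin synthase gene, fell by 1.55. Arg1, the other arginase gene, did not pass (0.82, adjusted p = 0.515). Counts of the 4 lists in single antibody groups were smaller: 4 genes (Itgam, Clec4d, Hdc and Csf1) were called higher of 61 under IgG2a, where 2.68% of all genes were. Under anti-PD-1, 3 of 61 (Cxcl3, Csf1 and Olr1) were higher and 1 (Ptges) lower, where 5.2% and 4.85% of all genes were. No gene of the 4 lists was called in the antibody comparisons.

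**Figure D5:**
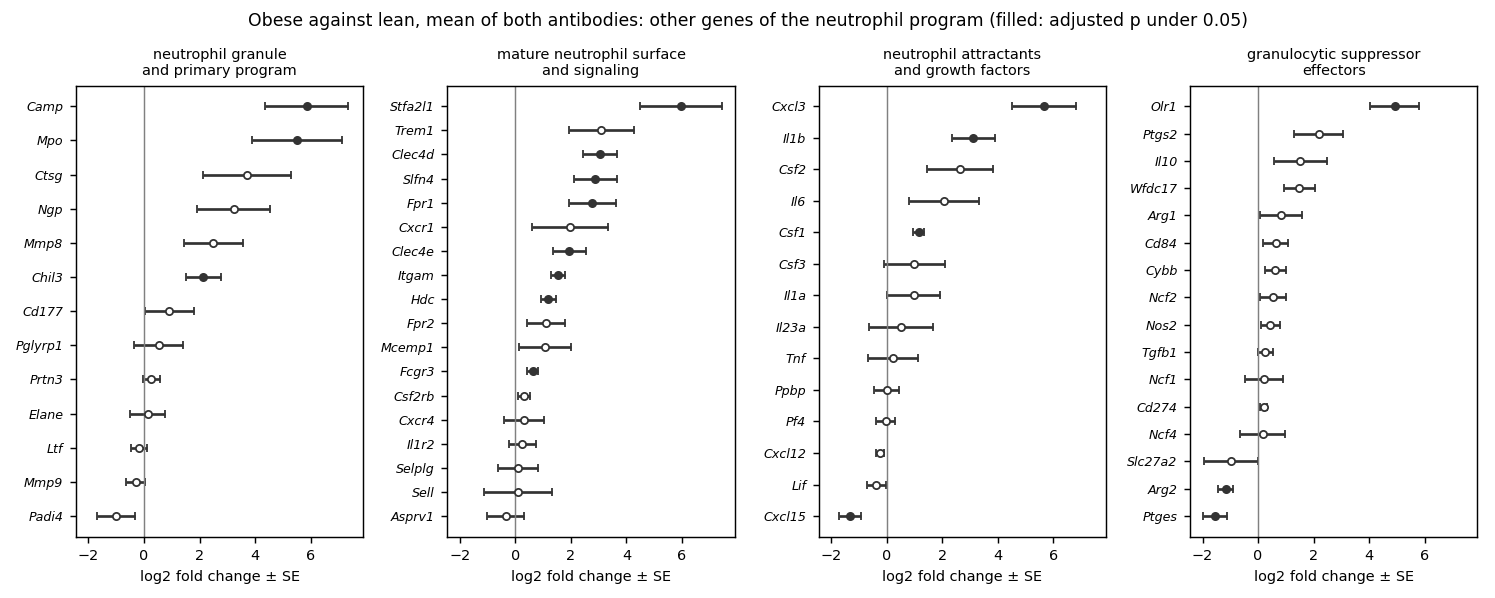
Fitted log2 fold changes (horizontal axis, SE as bars) of 61 tested genes of 4 lists, obese against lean averaged over both antibodies, filled where the adjusted p was under 0.05. Of the 18 mature neutrophil genes 8 are filled and higher. Of the 16 suppressor effector genes Olr1 is filled and higher and Arg2 and Ptges filled and lower. Over all genes tested, 10.6% were called higher and 8.15% lower.

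Some markers of other cells moved with the diet. Keratinocytes can also express S100a8 and S100a9. Epidermal genes summed to 24.0 to 483 TPM in lean and 5.37 to 76.8 TPM in obese libraries, opposite in direction to both S100 genes; their part was not tested. Eosinophil genes summed to 0.756 to 12.0 TPM in lean and 7.84 to 37.3 TPM in obese libraries. However, Epx, a defining gene of these cells, had no count in any lean library and in 11 of 13 obese ones. Prg2 of the same list had a mean of 1.12 TPM in lean and 0.928 TPM in obese libraries, and Siglecf of 0.0181 and 0.184 TPM. Without obese IgG2a 2 and 5 the average over antibodies still gave S100a8 (4.54), S100a9 (4.61), Cxcl1 (3.09), Cxcl2 (3.42) and Retnlg (4.20) as called. That fit called 2370 of 20976 genes in either direction. It kept obese IgG2a 4 and obese anti-PD-1 8, where Hmga2 and Fosl1 were also raised. Obese anti-PD-1 8 was the highest of its group for S100a8 (109 TPM), S100a9 (120 TPM), Cxcl2 (14.7 TPM) and Retnlg (8.13 TPM), though not for Cxcl1.

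The genes whose pattern over the 23 libraries was most like that of a listed gene were found among 13561 candidates by Pearson r of log2 CPM, which is a description. For S100a9 they were Ppp1r15a (r = 0.89, rho = 0.87), a stress response gene, the neutrophil granule gene Ngp (0.84, 0.83) and Dbr1 (0.84, 0.75). For Cxcl1 they were Pxdc1 (0.88, 0.86), Clec4e (0.86, 0.80) and Cxcl3 (0.85, 0.83). For Cxcr2 they were Tnfsf14 (0.92, 0.92), Gsdmd (0.91, 0.90) and Atg16l2 (0.90, 0.94), and since the libraries fall into separate B cell sets, r for Tnfsf14 was 0.89 in the higher set and 0.88 in the lower. For Lcn2 they were Aldoc (0.85, 0.72), Cd14 (0.84, 0.71) and the epithelial factor gene Ehf (0.84, 0.63). The genes nearest to Lcn2 were different from those nearest to S100a9, and r between Lcn2 and Aldoc was 0.70 in the higher B cell set and 0.91 in the lower. Over these 12 pairs of genes, r within either B cell set lay between 0.64 and 0.94. Among the listed genes, S100a9 and Retnlg had r = 0.86 (rho = 0.87), and Cxcl1 and Cxcl2 0.63 (0.61). S100a8 and S100a9 had 0.74 (0.78), with r of 0.94 in the higher B cell set and 0.71 in the lower. With group means subtracted, r for these pairs was 0.78, 0.46 and 0.67. Lcn2 then had r of 0.62 with Retnlg (0.28 before), 0.53 with S100a8 (0.04 before) and 0.37 with S100a9 (0.19 before). With the other tested members it had -0.08 to 0.06. All these values share the libraries and their depth.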

How the data were processed

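The deposited files give, per transcript, estimated counts (not normalized) and TPM, abundances scaled within each library by the authors. The submitters' processing notes name edgeR, limma and GRCm38. The estimation program was not given in the sources used here. Libraries were poly(A) selected and non-directional, from RNA of integrity number above 5, per the labels. Estimated counts and TPM were summed per gene through GENCODE M21 (888 of 115088 transcripts, at most 0.208% of the counts of a library, had no match), and counts were rounded. Levels are TPM; tests used counts. Genes were filtered by filterByExpr (minimum count 10), scaled by TMM and fitted with 1 mean per group to all 23 libraries (edgeR 4.0.16, R 4.3.3, quasi-likelihood, robust, two-sided). Log2 CPM used a prior count of 2.

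Depth gives counting error only. Of whole transcript values from 1 to 20, 54.8% to 72.5% per library were even, and whether reads or pairs were counted is not stated. Nothing in the labels names the animals, so p-values measure the spread between these samples. The 10 genes, the 4 gene lists and the 16 cell type lists (the results of those not named in the text are left out) were chosen with earlier results of these data known. Changes, SE and adjusted p are given for called genes of a comparison, or for the 3 of smallest p where fewer than 3 were called. Alternatives were DESeq2 (1.42.0) size factors and test, no filter, 1 CPM in 5 libraries, limma-trend (limma 3.58.1) on log2(TPM + 1), the B cell score as covariate or split at 4, fits of the compared groups alone, and omission of each library. After the data were seen, fits without obese IgG2a 2 and 5 and without obese anti-PD-1 1, 5 and 6 were added. The fit was also run on simulated counts with less spread between libraries than these data and no differences in cell content. That run therefore does not show how the fit performs here. No per-sample value column was left unread.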

Additional observations from a re-analysis of the deposited data

Results flagged for a closer look

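A gap test within groups of 5 or 8 libraries set apart 10 single values out of 39 sets of gene and group. Its nominal rate of 1 in 20 holds for normally distributed values, which TPM with many zeros are not. The count is therefore no measure of an excess of outliers. Where only 1 library of a group had counts, it was certain to be set apart, as for Cxcl5 and Ly6g in the lean groups. Obese anti-PD-1 7 held 22.6 TPM of Cxcl5. Ly6g stood apart in obese IgG2a 2 (9.68 TPM) and obese anti-PD-1 8 (1.60 TPM), and, from 2 counts each, in lean IgG2a 2 (0.0363 TPM) and lean anti-PD-1 3 (0.0437 TPM). Cxcl5 in lean anti-PD-1 4 (0.0212 TPM) likewise rested on 2 counts. Csf3r was highest of its group in obese IgG2a 5 (7.87 TPM), Cxcr2 in lean anti-PD-1 1 (2.44 TPM), Retnlg in lean anti-PD-1 2 (1.04 TPM) and Lcn2 in lean IgG2a 2 (125 TPM). Lean anti-PD-1 1 also had the highest B cell genes among lean libraries (1971 TPM). The part of these markers in the values was not tested.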

How the results depend on the processing

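Under IgG2a, 2 listed genes were called. DESeq2's test, the B cell score as covariate, the libraries with a score above 4 and the fit of only the groups compared each gave 5, those with a score at or below 4 gave 0, leaving out obese IgG2a 2 and 5 gave 1, leaving out obese anti-PD-1 1, 5 and 6 gave 4, and single libraries left out gave 0 to 3. All genes called under IgG2a, in either direction, numbered 1152 of 19882 in the main fit and 2018 of 19882 by DESeq2's test. The B cell covariate gave 2966 of 19882, only the groups compared 583 of 17702, and single libraries left out 495 to 1662. The score above 4 gave 1896 of 20704 and the score at or below 4 gave 255 of 22240, with all 10 listed genes tested. Leaving out obese IgG2a 2 and 5 gave 293 of 20976, and leaving out obese anti-PD-1 1, 5 and 6 gave 1077 of 19494. Under anti-PD-1, 1 was called. DESeq2 size factors gave 3, DESeq2's test 5, the filter of 1 CPM in 5 libraries 4, limma-trend 2, the B cell covariate 4, the score above 4 gave 3 and at or below 4 gave 0, only the groups compared 2, leaving out obese anti-PD-1 1, 5 and 6 gave 3, and single libraries left out gave 1 to 4. All genes called under anti-PD-1 numbered 1999 of 19882 in the main fit, 2103 with DESeq2 size factors and 3117 by DESeq2's test. The 1 CPM filter gave 2127 of 15670, limma-trend 3576 of 19882 and the B cell covariate 2739 of 19882. The score above 4 gave 574 of 20704, that at or below 4 gave 2530 of 22240, and only the groups compared 1718 of 18170. Leaving out obese anti-PD-1 1, 5 and 6 gave 834 of 19494, and single libraries left out 1108 to 2432. The average over antibodies (6 called) gave 0 with a score at or below 4 and 5 to 8 with single libraries left out. All genes called for that average numbered 3731 of 19882 in the main fit, and 2860 of 22240 and 2991 to 4509 in those fits. No called change turned its direction. Among changes that were not called, Lcn2 turned with a score above 4 (-0.23 in lean mice for anti-PD-1, 0.29 for the difference of antibody effects), Cxcr2 in that difference with the B cell covariate (0.12) and with a score at or below 4 (6.69), and Retnlg in it without lean anti-PD-1 2 (range with single libraries left out -1.85 to 0.49). The cause of these shifts was not tested; the split fits rest on fewer libraries, with 3 lean ones at the low score. Depth limits Cxcl5 and Ly6g in lean libraries (2 and 4 counts in all).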
